A study of Sus scrofa with 30 samples.

Results

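Plasma miRNAs were measured 1 day after total body irradiation (TBI) in 3 Göttingen minipigs and compared with the same animals before TBI. Of the 30 small RNA libraries of the series, 9 entered this comparison: the 3 libraries at 1d, and 6 pre-TBI libraries, 1 for each animal at 7 days (C7) and at 1 day (C1) before exposure. The animals were young males, and each received 2.2 Gy of 60Co gamma rays under isoflurane, Telazol and Xylazine. Blood was drawn from peripheral veins under isoflurane at every time point, and the animals were the vehicle arm of a countermeasure study, with dextrose given under the skin on day 1. Whether the 1d draw came before or after that injection was not given in the sources used here. No animal that stayed unirradiated was followed in these libraries, so a change after TBI and a change with time, handling or injection cannot be told apart. All 411 ssc-miRNAs (pig miRNAs, named as in miRBase) of the deposited count table were compared, each within its own animal.

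A miRNA is a short RNA that is cut from a hairpin precursor and lowers the translation and stability of mRNAs that pair with its seed. In plasma it travels in vesicles or bound to proteins and lipoproteins, and it comes from blood cells, platelets, endothelium and solid organs by secretion or by cell damage. Several miRNAs are therefore read as tissue signs, such as miR-122 for hepatocytes, miR-1 and miR-208b for striated muscle, and miR-451 for red cells. Ionizing radiation activates p53, a transcription factor with miR-34 among its direct targets, and it depletes lymphocytes from blood within a short time. Small RNA counts are shares of what was sequenced, so less of one miRNA and more of all others cannot be told apart.

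In every animal the 1d library had more counts than either own pre-TBI library. The 1d libraries held 262498, 356011 and 452489 counts in minipigs 1, 2 and 3, against 24341, 226891 and 413030 at C7 and 139786, 259716 and 423325 at C1. The log2 total, higher in 3 of 3 minipigs, averaged 17.46 ± 1.54 over the 6 pre-TBI libraries and 18.41 ± 0.39 (SD) over the 3 at 1d, and the mean within-animal difference of 0.95 did not pass a two-sided exact permutation test within animals (p = 0.259, where 27 arrangements allow no p under 0.037). Each library was then thinned at random to 24341 counts, in 1 draw that all thinned results below share. After thinning, the pre-TBI libraries held 403.5 ± 3.62 of the ssc-miRNAs (SD, n = 6). At 1d the thinned libraries held 396, 405 and 381 ssc-miRNAs (exact permutation test, two-sided p = 0.0741). The most counted ssc-miRNAs were ssc-miR-4332, ssc-miR-484, ssc-miR-9828-3p, ssc-miR-486 and ssc-miR-874. Together they took 29.1% ± 9.74 of the counts before TBI (SD, n = 6) and 36.5% ± 5.98 at 1d (SD, n = 3). PCR copies were not separated from molecules, so a low count limits precision at least as much as counting error alone.

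At 1d, 18 ssc-miRNAs were higher and 61 were lower than before TBI at an unadjusted p under 0.05, and none passed the adjusted threshold (edgeR's quasi-likelihood test with the animal as a block, Benjamini-Hochberg adjustment, smallest adjusted p = 0.120). These 79 were 19.2% of the 411 tested, with 4.38% higher and 14.8% lower, while a threshold of 0.05 alone gives 20.55 of 411. The lower ssc-miRNAs also changed by more, with a median log2 fold change of -1.40 and a range from -0.63 to -2.75. For the higher ones the median was 0.81 and the range from 0.59 to 1.24. The median over all 411 was -0.03. Both groups were chosen by p, and a row that varies more needs a larger change to pass. The sizes of the changes are therefore not independent of that choice. The 2 pre-TBI draws differed from each other, at 3 libraries against 3, for 10 ssc-miRNAs (2.43%), none of them after adjustment. That count was 57 without minipig 2, 6 without minipig 1 and 0 without minipig 3. In the thinned libraries, 14 ssc-miRNAs were higher and 57 lower at an unadjusted p under 0.05, and 53 of these were among the 79.

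The call of the adjusted test depended on the baseline and on the method. With C1 alone as the baseline, 51 ssc-miRNAs passed an adjusted p under 0.05, 5 higher and 46 lower, and with C7 alone 2 passed. DESeq2's Wald test on the same 9 libraries passed 38, with 12 higher and 26 lower. Minipig 3 carried much of the unadjusted count: without it 8 were higher and 7 lower, 15 in all and each of them among the 79. Without minipig 2, 39 passed the unadjusted threshold.

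The higher and the lower group differed in how they varied between animals and in their levels. Of the 79, 77 moved the same way in all 3 minipigs, against 52.1% of the 411, and the exceptions were ssc-miR-9792-5p and ssc-miR-493-3p, which were named after their values were seen. In the higher group, 18 of 18 stood above both own pre-TBI libraries in each animal (9.98% of the 411 did). In the lower group, 43 of 61 stood below both (15.1% of the 411). All 3 libraries at 1d stood above all 6 pre-TBI libraries for 8 of the 18 (3.41% of the 411) and below them for 12 of the 61 (3.16%). The 79 were chosen by p in a within-animal fit of these same libraries. That choice largely fixed their agreement between minipigs and their distance from the pre-TBI libraries, so the shares of the 411 are no independent comparison. The median SD over the pre-TBI libraries was 0.42 on the log2 scale for the higher group, 1.12 for the lower group and 0.55 for all. The median level over the 9 libraries was 9.92 log2 CPM in the higher group, 8.31 in the lower group and 9.05 in all. The lower group moved most in minipig 3, with median differences of -0.99, -1.07 and -1.94 from the own pre-TBI mean in minipigs 1, 2 and 3, and 43 of the 61 had their largest change there.

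**Figure D1:**
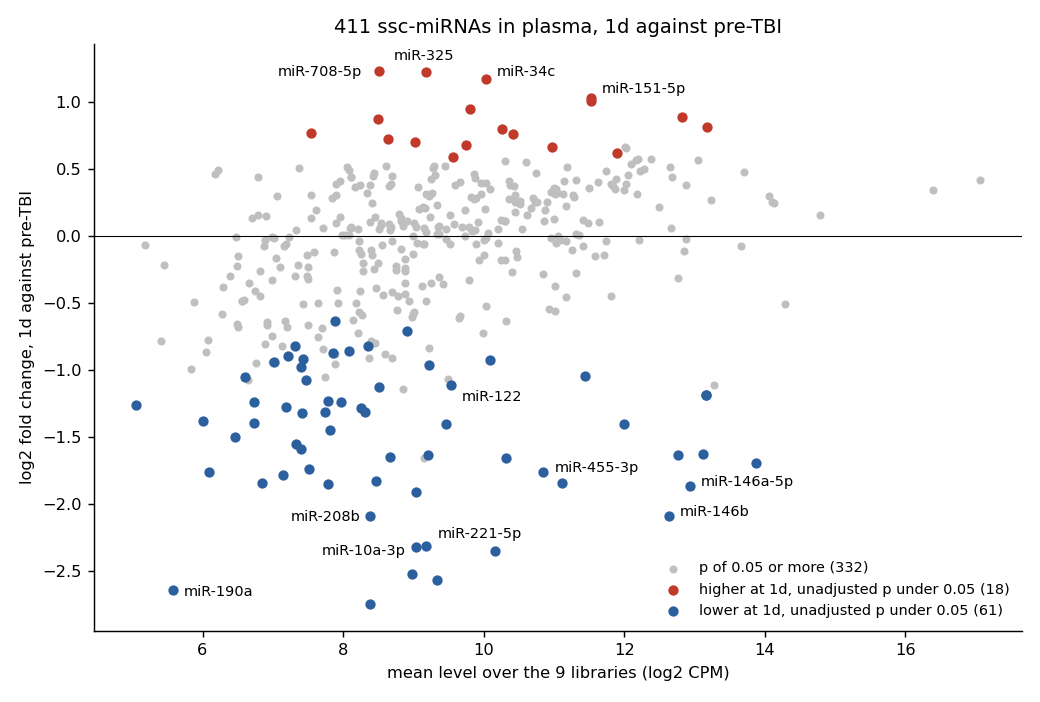
Log2 fold change at 1d against pre-TBI (vertical axis) by the mean level over the 9 libraries in log2 CPM (horizontal axis), 1 point for each of 411 ssc-miRNAs. The 18 higher ssc-miRNAs (red) lie between 0.59 and 1.24, and the 61 lower ones (blue) reach -2.75.

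ssc-miR-708-5p gave the smallest p of all. In minipigs 1, 2 and 3 its level was 8.03, 8.38 and 7.79 log2 CPM at C7 and 8.39, 8.09 and 7.90 at C1, and it was 9.41, 9.02 and 9.53 at 1d. Every 1d library stood above every pre-TBI library. The log2 fold change was 1.24 (SE 0.26), with an unadjusted p of 0.000581 and an adjusted p of 0.120 in edgeR's test, and it rested on 5 counts in the C7 library of minipig 1 against 169 to 286 counts at 1d. In the libraries thinned to 1 depth, its log2 fold change was 0.78 and no longer passed (edgeR, unadjusted p = 0.0833). Its hairpin lies within TENM4, which encodes a teneurin membrane protein, in the Sscrofa11.1 annotation.

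ssc-miR-325 was close behind. Its level was 8.03, 8.74 and 8.79 log2 CPM at C7, 9.34, 8.60 and 8.99 at C1, and 9.80, 10.09 and 10.23 at 1d. The 1d libraries again stood apart from the 6 others, with a log2 fold change of 1.22 (SE 0.28). ssc-miR-151-5p, from a hairpin within the focal adhesion kinase gene PTK2, was at 11.43, 11.03 and 11.17 log2 CPM at C7, 11.35, 10.38 and 11.71 at C1, and 12.30, 11.62 and 12.74 at 1d. Each animal rose above its own 2 pre-TBI values, though minipig 2 at 1d stayed under minipig 3 at C1 (log2 fold change 1.03, SE 0.26).

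Of the p53 targets, ssc-miR-34c, ssc-miR-215 and ssc-miR-192 were higher, and the other 4 rows did not pass. ssc-miR-34c, a miR-34 member transcribed under p53, was at 9.59, 10.79 and 8.87 log2 CPM at C7 and at 10.12, 9.63 and 8.82 at C1. At 1d it was at 10.78, 11.11 and 10.62. The change was largest in minipig 3, which had the lowest levels before TBI, and the log2 fold change was 1.17 (SE 0.32, unadjusted p = 0.0040). ssc-miR-215, another p53 target that is abundant in gut epithelium, was at 10.00, 10.20 and 10.01 log2 CPM at C7, 10.35, 9.57 and 10.73 at C1, and 11.11, 10.54 and 11.19 at 1d (log2 fold change 0.77, SE 0.27). Its relative ssc-miR-192, made in liver and gut, averaged 11.69 ± 0.27 log2 CPM in the pre-TBI libraries (SD, n = 6) and 12.31 ± 0.48 at 1d (SD, n = 3), a log2 fold change of 0.62 (SE 0.26, unadjusted p = 0.0366). The mature forms of ssc-miR-192 and ssc-miR-215 are close to each other in sequence, so reads could be shared between them and their separate values are uncertain. Of the 7 rows in the list of p53 targets, these 3 were higher and none was lower, beside 4.38% higher and 14.8% lower of all 411. The median log2 fold change was 0.11, beside -0.03 over all. ssc-miR-34c and ssc-miR-192 did not pass without minipig 3, nor ssc-miR-215 and ssc-miR-192 without minipig 2. ssc-miR-34a, the best known member of the family, was at 7.71 ± 0.54 before TBI and 7.71 ± 0.05 at 1d, with a log2 fold change of 0.06 (SE 0.28) that turned to -1.14 in the thinned libraries.

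Among the other leading higher ssc-miRNAs was ssc-miR-126-5p, from a hairpin that endothelium and platelets use. It was at 8.51, 9.59 and 9.79 log2 CPM at C7, 9.97, 9.35 and 9.56 at C1, and 10.40, 11.01 and 10.02 at 1d. All 3 libraries at 1d stood above all 6 before TBI, with the smallest step in minipig 3 (log2 fold change 0.95, SE 0.33). In unscaled counts, minipig 3 had 482 of 413030 at C7 and 404 of 452489 at 1d, so that separation depends on the scaling. ssc-miR-424-3p averaged 11.16 ± 0.55 in the pre-TBI libraries (SD, n = 6) and 12.24 ± 0.63 at 1d (SD, n = 3), a log2 fold change of 1.01 (SE 0.36). The remaining leading higher ones were ssc-miR-9806-5p, ssc-miR-1296-3p, ssc-miR-7142-5p, ssc-miR-1468 and ssc-miR-9805-3p, with log2 fold changes from 0.71 to 0.89. Of these, ssc-miR-9806-5p, ssc-miR-1296-3p and ssc-miR-9805-3p did not overlap with the pre-TBI libraries. For ssc-miR-1296-3p this too depends on the scaling, as minipig 3 had 101 of 413030 counts at C7 and 107 of 452489 at 1d. It had 2 counts in the C7 library of minipig 1.

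**Figure D2:**
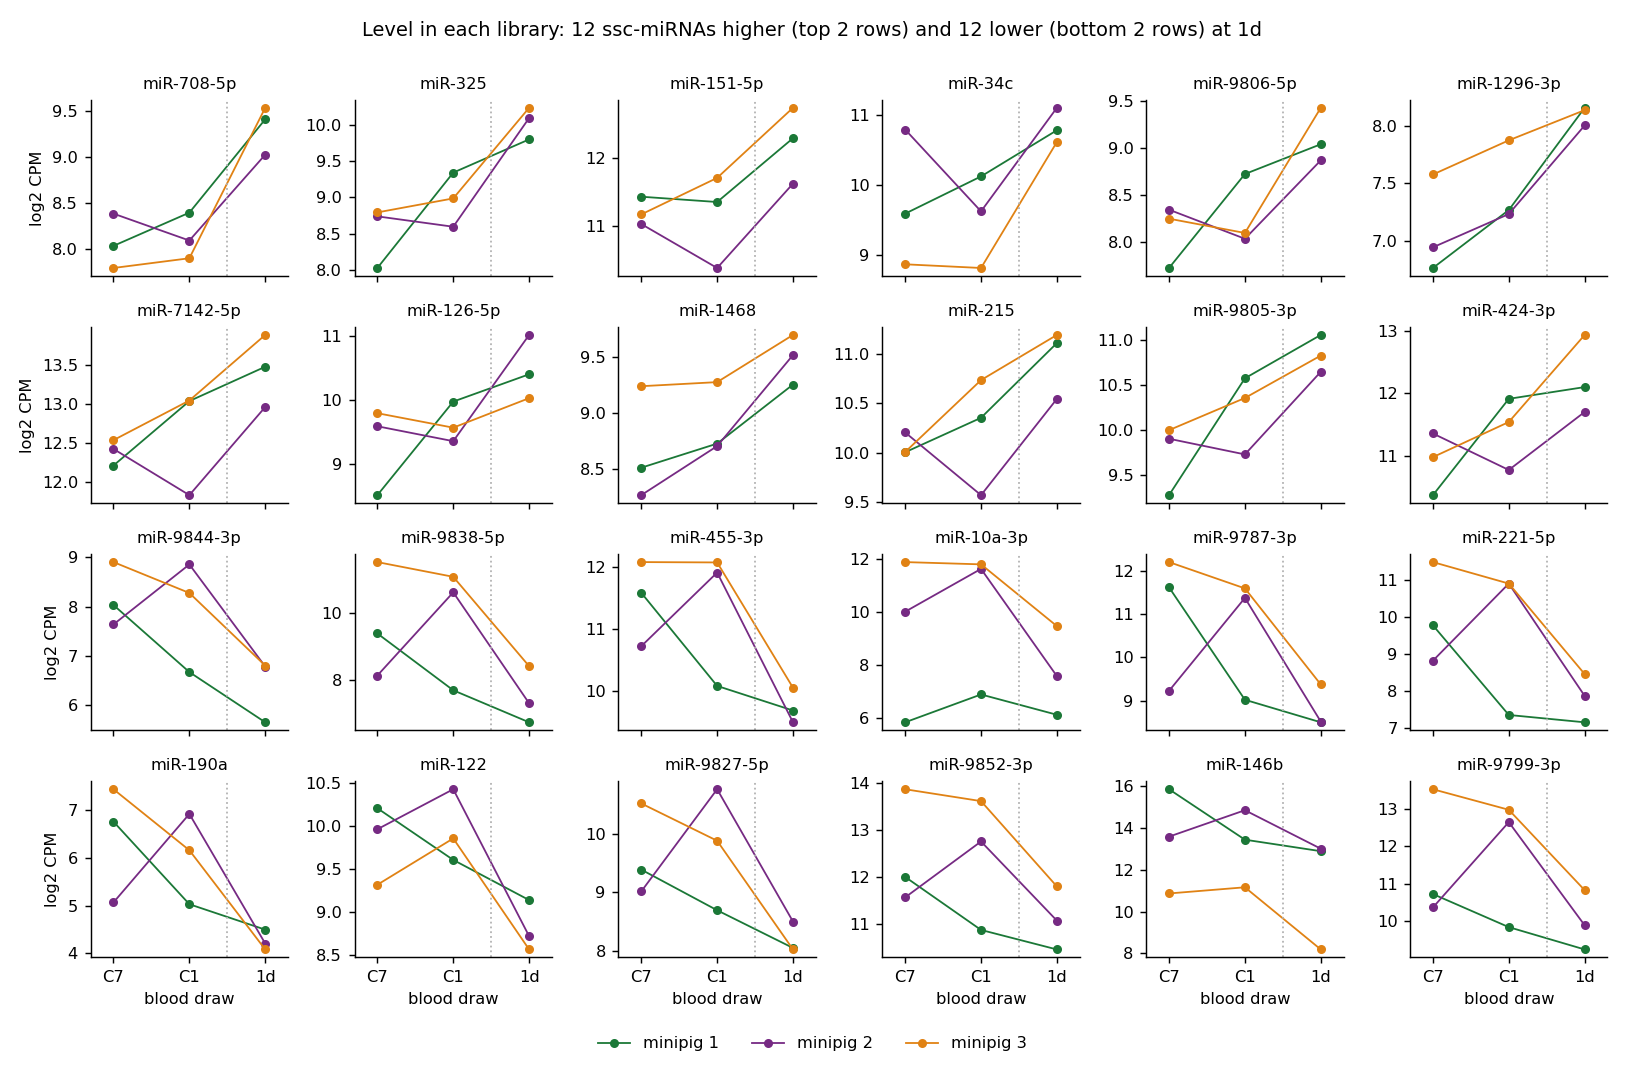
Level in log2 CPM (vertical axes, scaled for each panel) at C7, C1 and 1d in minipigs 1 (green), 2 (purple) and 3 (orange), for the 12 higher and 12 lower ssc-miRNAs with the smallest p that moved the same way in every minipig. The dotted line marks TBI, and in the lower panels the pre-TBI levels of 1 animal differ between draws by as much as 2.61 log2 units (ssc-miR-9787-3p in minipig 1).

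ssc-miR-122, the main miRNA of hepatocytes, had the smallest pre-TBI SD of the 12 leading lower ssc-miRNAs (0.40 on the log2 scale). It was at 10.21, 9.96 and 9.32 log2 CPM at C7, 9.60, 10.43 and 9.85 at C1, and 9.14, 8.72 and 8.56 at 1d. Each 1d library stood below all 6 pre-TBI libraries. The log2 fold change was -1.11 (SE 0.30, unadjusted p = 0.0033 in edgeR's test). The p stayed under 0.05 in each of 19 alternative settings, with log2 fold changes from -1.84 to -0.99. Among these, no filter and a filter of at least 10 counts in at least 3 libraries kept all 411 and so repeated the main fit. In the list of hepatocyte miRNAs it was the 1 lower row of 6, with 1 higher (ssc-miR-192) and a median of -0.24. Of all 411, 14.8% were lower and 4.38% higher.

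ssc-miR-146b and ssc-miR-146a-5p, which NF-kB induces and which dampen Toll-like receptor signalling, were both lower at 1d. ssc-miR-146b was at 15.84, 13.58 and 10.86 log2 CPM at C7, 13.43, 14.84 and 11.16 at C1, and 12.88, 13.00 and 8.19 at 1d. The 1d value was the lowest of its animal in all 3 minipigs, but minipigs differed from each other by more than the change, and in minipig 3 the count went from 1018 and 1051 to 111. The log2 fold change was -2.09 (SE 0.59, unadjusted p = 0.0051). ssc-miR-146a-5p was at 15.85, 13.67 and 11.51 at C7, 13.48, 14.90 and 11.58 at C1, and 12.94, 13.08 and 9.41 at 1d (log2 fold change -1.86, SE 0.55). These 2 mature miRNAs differ at few bases, so shared reads could give both rows the same course. The other arm, ssc-miR-146a-3p, was at 9.01 ± 1.07 before TBI and 7.36 ± 0.43 at 1d (log2 fold change -1.83, SE 0.57).

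The inflammation list held 6 rows, of which 4 were lower (14.8% of all 411 were) and none higher, with a median log2 fold change of -1.60. Without minipig 3 none of these 4 passed, and the miR-146 rows may share reads. The fourth lower row was ssc-miR-155-3p, the less used arm of a lymphocyte and macrophage miRNA, at 8 to 20 counts before TBI and 11, 24 and 2 counts at 1d (log2 fold change -1.38, SE 0.54). The main arm, ssc-miR-155-5p, was at 5.51 ± 0.69 before TBI and 5.32 ± 0.69 at 1d, with a log2 fold change of -0.21 (SE 0.44). ssc-miR-21, which many cell types raise under stress, had a log2 fold change of 0.07 (SE 0.30). It was higher in minipig 2, at 10.47 log2 CPM against 9.71 and 9.59 before TBI, and lower in minipigs 1 and 3 than their pre-TBI means.

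A second set of lower ssc-miRNAs shared another order of libraries. ssc-miR-455-3p, from a hairpin within the collagen gene COL27A1, was at 11.58, 10.72 and 12.08 log2 CPM at C7, 10.08, 11.91 and 12.07 at C1, and 9.68, 9.49 and 10.05 at 1d. The 1d libraries stood below all others (log2 fold change -1.76, SE 0.41). ssc-miR-221-5p was at 9.77, 8.81 and 11.48 at C7, 7.35, 10.90 and 10.90 at C1, and 7.15, 7.86 and 8.45 at 1d. Minipig 1 had nearly its 1d level already at C1 (log2 fold change -2.31, SE 0.61). ssc-miR-9838-5p, ssc-miR-9787-3p, ssc-miR-9799-3p and ssc-miR-9852-3p, numbered in the range that miRBase uses for pig, had log2 fold changes of -2.52, -2.35, -1.84 and -1.40. For these 6 the minipig 3 libraries and the C1 library of minipig 2 were the high ones before TBI. The C7 library of minipig 1 was also among them for ssc-miR-9787-3p and ssc-miR-455-3p.

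ssc-miR-10a-3p was the exception among the leading lower ones. In minipig 1 it was at 5.85 log2 CPM at C7, 6.90 at C1 and 6.13 at 1d, so this animal did not fall below both own pre-TBI values. Those levels rested on 1, 13 and 16 counts, so the C7 value is near the floor and limits that comparison. In minipigs 2 and 3 it went from 10.02 and 11.89 at C7 and 11.63 and 11.80 at C1 to 7.59 and 9.47 at 1d (log2 fold change -2.32, SE 0.58). ssc-miR-190a, from a hairpin within the talin gene TLN2, had a log2 fold change of -2.64 (SE 0.70), on 4, 5 and 4 counts at 1d and 2 to 92 counts before. ssc-miR-9844-3p and ssc-miR-9827-5p complete the 12, with log2 fold changes of -1.74 and -1.63. The 3 strongest falls of the 411 were -2.75 for ssc-miR-3613, -2.64 for ssc-miR-190a and -2.57 for ssc-miR-95, of which the first and the last were named after their values were seen.

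Striated muscle miRNAs were lower or did not pass. ssc-miR-208b, from a hairpin within the slow myosin heavy chain gene MYH7, was at 9.01, 7.50 and 10.80 log2 CPM at C7, 6.25, 10.16 and 10.01 at C1, and 6.62, 7.21 and 7.89 at 1d. Minipig 1 at 1d lay between its own 2 pre-TBI values, and the 8 counts at its C1 library limit that comparison (log2 fold change -2.09, SE 0.70). ssc-miR-499-5p, within MYH7B, changed by -0.81 (SE 0.36), and ssc-miR-1, shared by heart and skeletal muscle, by -1.50 (SE 0.51) on 7 to 25 counts at 1d. These 3 of 8 rows were lower (14.8% of all 411 were) and none was higher, with a median log2 fold change of -0.53, and none of the 3 passed without minipig 3.

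Of the blood cell signs, ssc-miR-451, the main red cell miRNA, differed by more between libraries than between pre-TBI and 1d. It was at 9.01, 13.29 and 12.19 log2 CPM at C7, 9.70, 10.94 and 10.20 at C1, and 9.83, 12.83 and 9.65 at 1d, and it was higher than the own pre-TBI mean in minipigs 1 and 2 and lower in minipig 3 (log2 fold change -0.28, SE 0.64). ssc-miR-486 and ssc-miR-144 both had log2 fold changes of -0.50 (SE 0.52 and 0.49). The log2 ratio of miR-451 to miR-23a, a measure in common use for red cell lysis, averaged 1.11 ± 1.73 over the 6 pre-TBI libraries and 0.94 ± 1.74 (SD) over the 3 at 1d, a difference that did not pass (exact permutation test, two-sided p = 0.815). It was highest in the C7 and 1d libraries of minipig 2 and in the C7 library of minipig 3, at 3.42, 2.94 and 2.79. None of the 3 red cell rows passed, and their median was -0.50.

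The lymphocyte list had 1 lower row of 6, ssc-miR-155-3p, and a median of -0.11. ssc-miR-150, a main miRNA of mature lymphocytes, was at 9.14 ± 0.17 before TBI and 9.19 ± 0.35 at 1d, with a log2 fold change of 0.06 (SE 0.25). The leukocyte miRNAs ssc-miR-142-5p and ssc-miR-142-3p had log2 fold changes of -0.56 (SE 0.28) and -0.63 (SE 0.33), with unadjusted p = 0.0732 and 0.0781 in edgeR's test. The platelet list had 2 of 15 rows higher (ssc-miR-126-5p and ssc-miR-151-5p), 2 lower (ssc-miR-221-5p and ssc-miR-425-5p) and a median of 0.02. The lower rows were about as frequent there as the 14.8% over all 411, and 4.38% of all were higher. ssc-miR-425-5p was at 11.78 ± 0.93 before TBI and 10.76 ± 0.40 at 1d (log2 fold change -1.04, SE 0.33). In bulk plasma, fewer cells of a type and less RNA from each cannot be told apart.

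Of the 20 rows from the imprinted DLK1-DIO3 locus, a large miRNA cluster expressed from the maternal chromosome, 5 were lower (14.8% of all 411 were) and none higher, with a median of -0.47. The 5 were ssc-miR-376a-3p, ssc-miR-376a-5p, ssc-miR-376c, ssc-miR-382 and ssc-miR-493-3p, with log2 fold changes from -0.86 to -1.31, and none of them passed without minipig 3. Members of the miR-376 family resemble each other, so their counts are uncertain. The clusters related to miR-17 to miR-92, which proliferating cells express, had 1 lower row of 11 (ssc-miR-19a, -1.27, SE 0.49) and a median of -0.15. The gut list had 2 higher of 6 rows, ssc-miR-192 and ssc-miR-215, with a median of 0.03. Both also belong to the list of p53 targets, and their reads could be shared. The endothelium list had 1 higher of 6, ssc-miR-126-5p, with a median of 0.12. Of all 411, 4.38% were higher. No row passed among 9 of let-7 (median -0.35), 18 of brain (median -0.01) and 10 of smooth muscle and fibroblasts (median 0.28).

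The last lists were taken from miRNAs that the study set apart in the first week or over the whole course after TBI, in a set of libraries that includes these at 1d, so their directions are not independent here. Of 24 rows put there as lower, 4 were lower at 1d and none higher: ssc-miR-221-5p, ssc-miR-542-5p, ssc-miR-542-3p and ssc-miR-376a-3p, with a median of 0.04 over the list. That is about the 14.8% lower over all 411. ssc-miR-542-5p and ssc-miR-542-3p had log2 fold changes of -1.07 (SE 0.40) and -1.24 (SE 0.47). Of 14 rows put there as higher, 1 was higher, ssc-miR-424-3p, and 2 were lower, ssc-miR-490-3p and ssc-miR-190b, with a median of -0.06. Of all 411, 4.38% were higher. ssc-miR-490-3p was at 13.51 ± 1.77 before TBI and 12.46 ± 1.29 at 1d (log2 fold change -1.18, SE 0.53).

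Many of these calls did not hold when 1 animal was left out. Such a fit has fewer libraries, so a p can rise above 0.05 while the log2 fold change stays near its main value. ssc-miR-7142-5p, at 0.89 in the main fit, was at 0.85 without minipig 3 and also without minipig 2. ssc-miR-126-5p, in contrast, went from 0.95 to 0.53 without minipig 2. Without minipig 3, 15 of the 24 leading ssc-miRNAs kept an unadjusted p under 0.05. The 9 that did not were ssc-miR-34c (log2 fold change 0.88), ssc-miR-9806-5p (0.72), ssc-miR-7142-5p (0.85), ssc-miR-424-3p (0.72), ssc-miR-190a (-2.04), ssc-miR-9827-5p (-1.28), ssc-miR-9852-3p (-1.10), ssc-miR-146b (-1.71) and ssc-miR-9799-3p (-1.50). The 18 further list members named as higher or lower all fell short without it, among them ssc-miR-146a-5p (-1.68), ssc-miR-192 (0.52), ssc-miR-208b (-1.75), ssc-miR-1 (-0.98) and ssc-miR-382 (-0.52). Without minipig 2, 7 of the 24 fell short, all of them higher at 1d: ssc-miR-9806-5p (0.87), ssc-miR-1296-3p (0.60), ssc-miR-7142-5p (0.85), ssc-miR-126-5p (0.53), ssc-miR-1468 (0.43), ssc-miR-215 (0.76) and ssc-miR-9805-3p (0.71). In the fit without the animal as a block, ssc-miR-10a-3p (-2.63), ssc-miR-146b (-1.85) and ssc-miR-146a-5p (-1.80) did not pass, with unadjusted p of 0.0596, 0.168 and 0.131 in edgeR's test. There, 9 of the 18 further list members fell short, which beside ssc-miR-146a-5p were ssc-miR-155-3p, ssc-miR-499-5p, ssc-miR-19a, ssc-miR-376a-3p, ssc-miR-376a-5p, ssc-miR-376c, ssc-miR-382 and ssc-miR-490-3p. In the thinned libraries, ssc-miR-1296-3p (1.11), ssc-miR-1468 (0.61) and ssc-miR-190a (-1.20) did not pass, beside ssc-miR-708-5p. Of the 18, 9 fell short in the thinned libraries: ssc-miR-192 (0.49), ssc-miR-1 (-0.75), ssc-miR-155-3p, ssc-miR-19a, ssc-miR-376a-3p, ssc-miR-493-3p, ssc-miR-382, ssc-miR-542-3p and ssc-miR-190b.

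**Figure D3:**
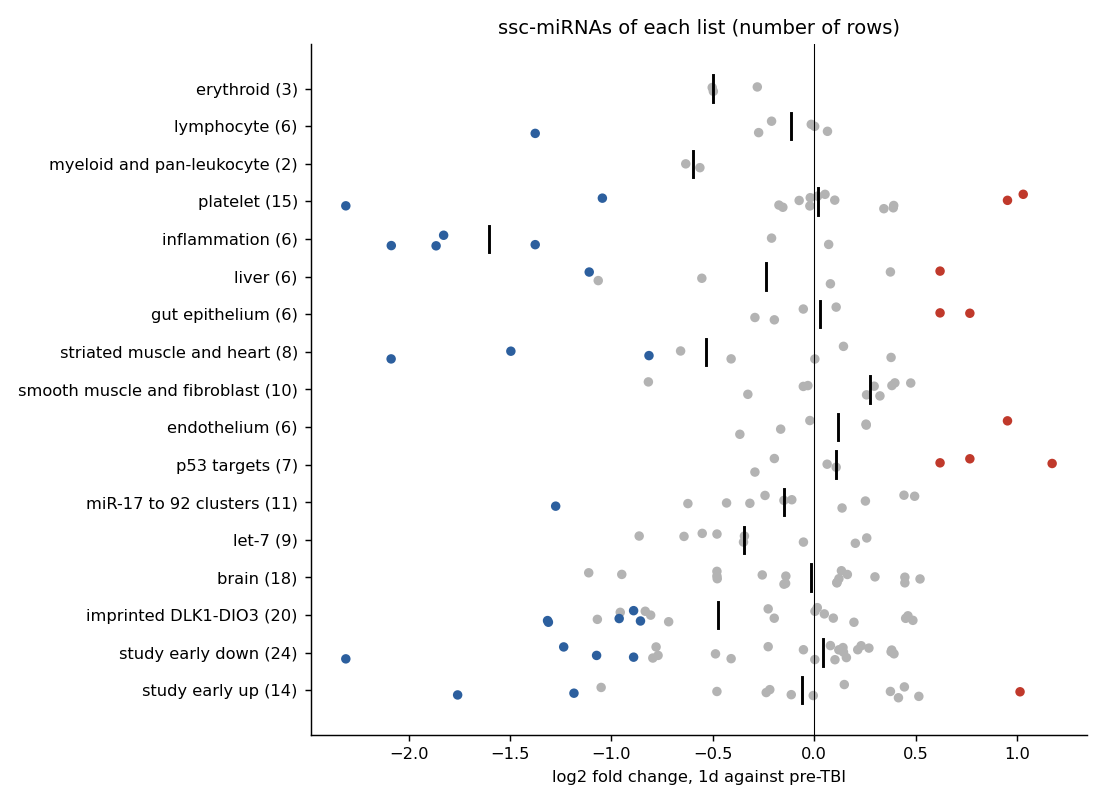
Log2 fold change at 1d against pre-TBI for each row of the 17 lists, with the number of rows in parentheses and the list median as a black bar. Red points were higher and blue points lower at an unadjusted p under 0.05, and the inflammation list, with 4 of 6 rows lower, has the lowest median at -1.60.

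The mature miRNAs from the 5p and the 3p side of 1 hairpin start from the same precursor, so they could be set against each other within each library. Both arms were listed for 78 hairpins, and the log2 fold changes of the 2 arms had the same sign in 52. At least 1 arm passed an unadjusted p under 0.05 in 25 hairpins. Both arms did in 5, always in the same direction, and only 1 arm did in 20. Of all 411 ssc-miRNAs, 19.2% passed that threshold. The log2 ratio of the 5p to the 3p arm depends on how libraries are scaled only through the prior count of 2, which matters where an arm has few counts. The change of this ratio from pre-TBI to 1d was tested with limma over all 78 hairpins with the animal as a block. It passed an unadjusted p under 0.05 for 11 hairpins (14.1%) and an adjusted p for none, in a comparison that was added after the values were seen. Without minipig 3, 3 passed the unadjusted threshold, without minipig 2, 7, without minipig 1, 17, and without the C7 library of minipig 1, 18.

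ssc-miR-708 had the largest change of the arm ratio among the 78. Its 5p arm changed by 1.24 and its 3p arm by -1.14, and the ratio of 5p to 3p rose by 3.02, 1.11 and 2.69 log2 units in minipigs 1, 2 and 3 (2.27, SE 0.65, adjusted p = 0.180 by limma). For ssc-miR-10a the 3p arm changed by -2.32 while the more abundant 5p arm changed by 0.22. The ratio changed by 0.30, 3.53 and 2.69, where the 0.30 of minipig 1 rests on 1 count of the 3p arm at C7. The ssc-miR-221 arms parted the other way, with -2.31 for 5p and 0.10 for 3p, and the ratio changed by -1.47, -1.95 and -3.11. For ssc-miR-455 the change was in the 3p arm (-1.76, against -0.10 for 5p), and for ssc-miR-151 and ssc-miR-126 in the 5p arm (1.03 and 0.95, against 0.02 and -0.02 for 3p). In ssc-miR-424 the 3p arm was higher (1.01) and the 5p arm was at -0.77 without passing. The ratio moved the same way in all 3 minipigs for each of the 11 hairpins, which their choice by p in a within-animal fit largely fixed.

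**Figure D4:**
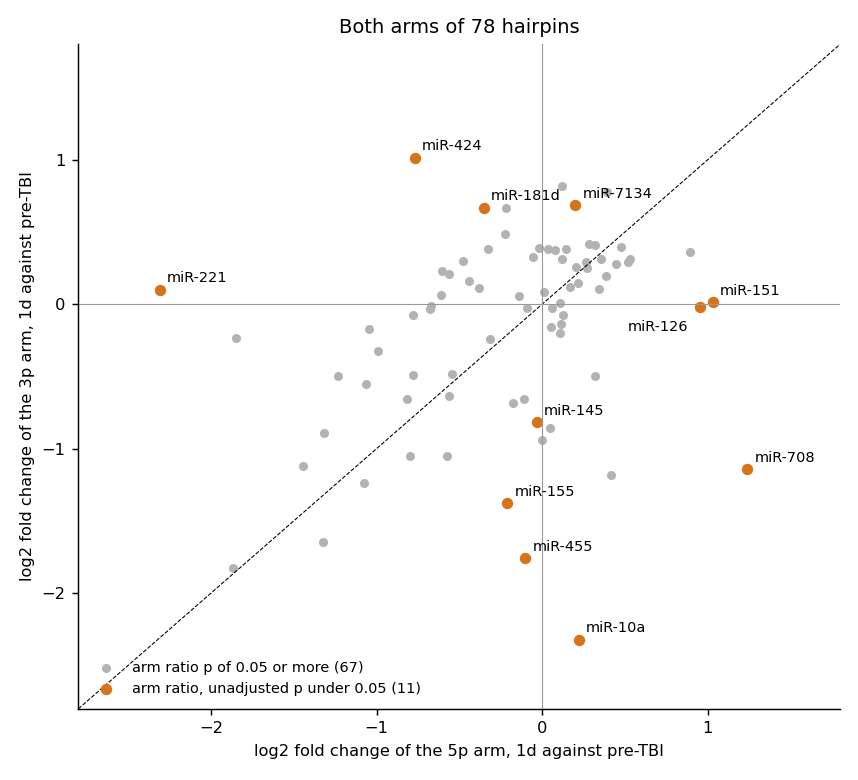
Log2 fold change of the 3p arm (vertical axis) against that of the 5p arm (horizontal axis), 1d against pre-TBI, for 78 hairpins. Hairpins on the dashed line changed alike in both arms, and the 11 in orange, ssc-miR-708 at 1.24 and -1.14 among them, had an arm ratio with an unadjusted p under 0.05.

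The other time points were set beside 1d as differences from each animal's own pre-TBI mean, in log2 CPM scaled over the 24 libraries with at least 1000 counts. They share the pre-TBI libraries with the 1d comparison, and from 3d onwards only minipigs 1 and 2 had such libraries. ssc-miR-708-5p was at 0.38, 0.89 and 1.24 on the day of TBI (0d) in minipigs 1, 2 and 3, and at 1.19, 0.78 and 1.68 at 1d. It was above the pre-TBI mean at 0d in all 3, and in minipig 2 by more than at 1d. As the mean of minipigs 1 and 2 it was at 0.18 at 3d and 0.03 at 7d, and minipig 1 was again at 1.15 at 20d. ssc-miR-34c was at -0.34, 0.53 and 1.41 at 0d in minipigs 1, 2 and 3, and at 0.92, 0.89 and 1.77 at 1d, so that minipigs 2 and 3 were above their pre-TBI means at 0d and minipig 1 was not. At 3d minipig 1 was at 0.51 and minipig 2 at -0.37, and at 7d they were at 0.06 and -1.23. As the mean of minipigs 1 and 2, ssc-miR-215 was at -0.01 at 0d, 0.79 at 1d and 1.50 at 3d, and ssc-miR-192 was at -0.33, 0.47 and 1.24, so that both were higher at 3d than at 1d in both animals. ssc-miR-126-5p was at 0.28, 1.35 and 1.82.

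Among the lower ssc-miRNAs, ssc-miR-122 was already at -1.29, -1.12 and -0.82 at 0d in minipigs 1, 2 and 3, next to -0.77, -1.47 and -1.02 at 1d. As the mean of minipigs 1 and 2 it was at -0.45 at 3d and -0.62 at 7d. ssc-miR-455-3p and ssc-miR-221-5p were at -0.85 and -0.80 at 0d in minipig 1, at 0.14 and 0.05 in minipig 2, and at -2.29 and -2.77 in minipig 3. At 10d both were above the pre-TBI mean, at 1.53 and 1.36. ssc-miR-146b stayed below its pre-TBI mean from 0d to 7d in both animals, from -0.47 to -2.64 as the mean. At 7d it was at -0.97 in minipig 1 and -4.30 in minipig 2. The C1 library of minipig 1 was itself at -1.21, so the 7d value of this animal lay within its pre-TBI spread.

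**Figure D5:**
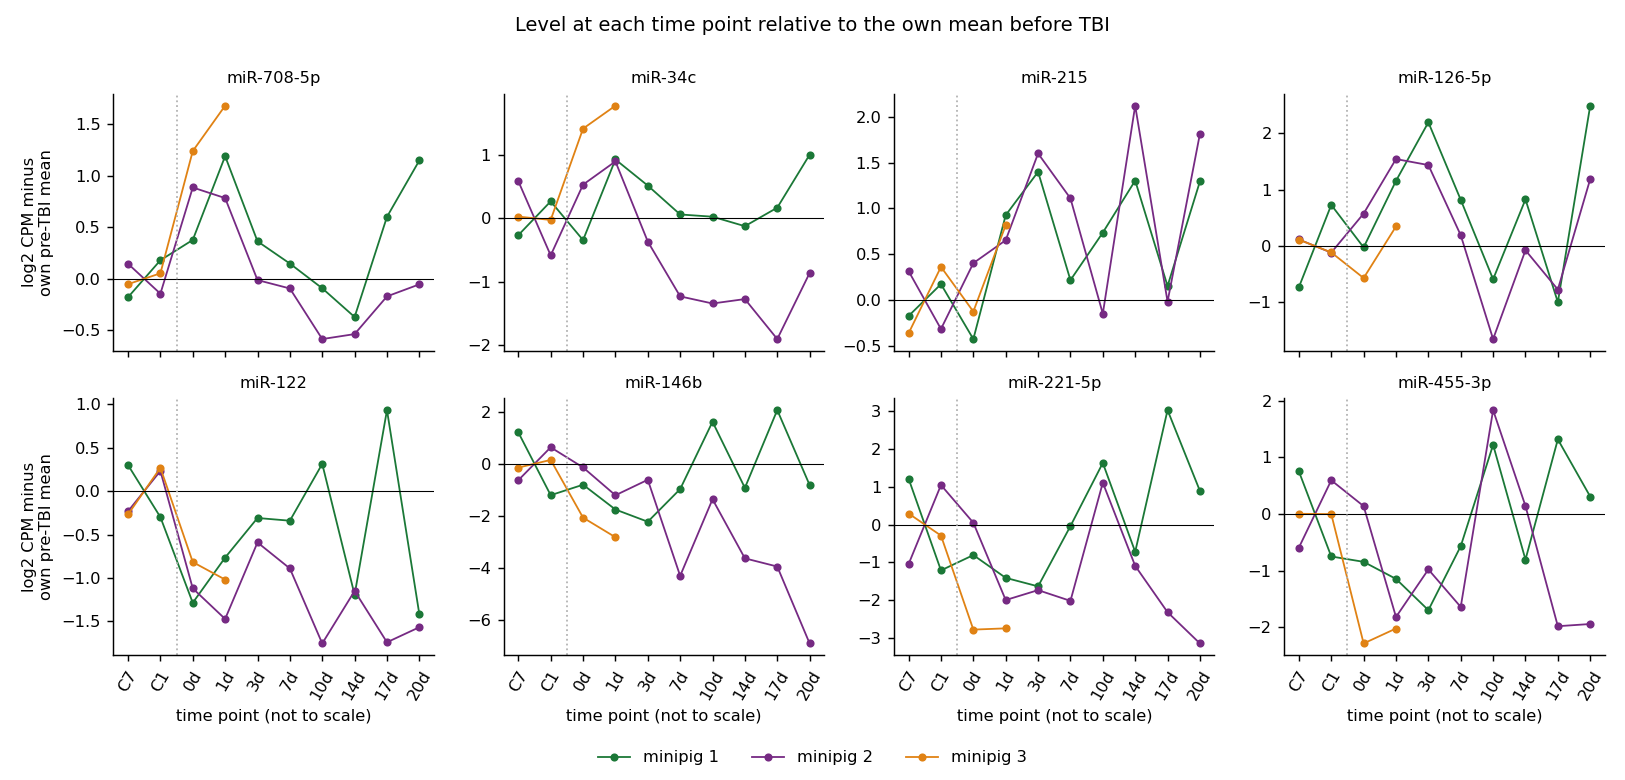
Log2 CPM minus the own pre-TBI mean (vertical axes, scaled for each panel) at 10 time points, not drawn to scale, in minipigs 1 (green), 2 (purple) and 3 (orange), with 0 as the own pre-TBI mean and a dotted line at TBI. The 8 ssc-miRNAs shown include ssc-miR-122, below 0 at 0d and 1d in all 3 minipigs, and minipig 3 has no values after 1d.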

How the data were processed

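Small RNA of plasma was sequenced by the authors from TruSeq libraries on a NextSeq instrument. The reads were trimmed with Cutadapt, mapped with Bowtie2 2.2.3.0 (version per the submitters' processing notes) to ssc5, a pig genome assembly, remapped to miRBase entries, and quantified with miRDeep2. The values deposited are counts of reads, not normalized, for 411 ssc-miRNAs in 30 libraries, and whether they are the rows left by the low-count filter in the study's methods was not given in the sources used here. Groups and animals came from the sample labels. The study's methods name 3 pre-TBI time points as the baseline, and the labels give C7 and C1.

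Counts of the 9 libraries were fitted with edgeR 4.0.16 (R 4.3.3): TMM scaling, CPM above 0.5 in at least 3 libraries (all 411 passed), the quasi-likelihood F test, the animal as an additive block, and Benjamini-Hochberg adjustment over 411. SE is the log2 fold change divided by the root of F. A gain or loss at "an unadjusted p under 0.05" uses the study's own threshold. Levels are log2 CPM with a prior count of 2. DESeq2 1.42.0 and limma were used as named. The fits were tested on simulated counts. Python 3.11.15, pandas 2.3.3, numpy 2.4.6 and matplotlib 3.10.9 gave the other values and the plots.

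Libraries of 1 number came from the same animal. Their deviations from group means correlated by 0.44 on average in 9 pairs of libraries of 1 animal (-0.33 to 0.81), and by -0.23 in 18 pairs across animals. Deviations cancel out within each group, so the value across animals largely follows from the value within animals. The 3 libraries of a group came from separate animals.

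The members and lists were chosen with earlier results of these data known. Named are up to 12 higher and 12 lower ssc-miRNAs with the smallest p that moved the same way in all 3 minipigs, the members of 17 lists with an unadjusted p under 0.05, and the 5 with the most counts. The rule also names the 3 most abundant members of each list, and those that did not pass are given within the counts and medians of their list unless named. ssc-miR-34a, ssc-miR-150 and ssc-miR-155-5p were added for their roles. Rows with identical counts (4 pairs, of which ssc-miR-490 repeats the named ssc-miR-490-3p) were named once. Host genes are those of RefSeq's Sscrofa11.1 annotation, where 361 of 411 rows matched a hairpin, and no coordinates were used. Sequences were not used here. Alternatives covered scaling, filters, baseline, block, test, thinning and leaving out each animal.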

Additional observations from a re-analysis of the deposited data

Results flagged for a closer look

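A library stood apart from the others of its group in 2 of 63 sets of 6 pre-TBI values, by a gap of more than the 95% limit for the share of the range, and chance alone gives about 1 in 20. For ssc-miR-542-3p, the C7 library of minipig 1 was at 8.86 log2 CPM against 6.40 to 7.09 in the other 5 (gap of 0.722 of the range), on 9 counts. For ssc-miR-486, the C7 library of minipig 2 gave it 7.96% of its counts against 0.872% to 2.87% in the other 5 (gap of 0.718 of the range).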

How the results depend on the processing

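The 24 leading ssc-miRNAs kept their direction in all alternatives that could be run, which their choice as moving the same way in each minipig largely fixed where 1 animal was left out. No filter and a filter of at least 10 counts in at least 3 libraries kept all 411, so these alternatives repeated the main fit. The main fit already held the animal as a block, and without the replicate block 62 ssc-miRNAs had an unadjusted p under 0.05 (21 higher and 41 lower, 56 of them among the 79), none adjusted. An adjusted p under 0.05 was reached by 1 ssc-miRNA (ssc-miR-708-5p) over the 24 libraries with at least 1000 counts with the block, 51 with C1 only, 2 with C7 only (ssc-miR-3613 and ssc-miR-95), 38 with DESeq2 and 33 with edgeR's likelihood ratio test, and by none when 1 minipig was left out. The unadjusted 79 became 50 over the 24 libraries without the block, 39 of 231 tested with at least 10 counts in every library, and 15 to 94 when 1 minipig was left out. C1 against C7 gave 10 at an unadjusted p, and 4 without the block, 4 with library size only, 18 in thinned counts and 0 to 57 when 1 minipig was left out. The arm ratio count of 11 became 3 to 17 when 1 minipig was left out and 18 without C7 of minipig 1, alternatives chosen after seeing the data. The miR-451 to miR-23a ratio turned to 0.38 with C1 only, and ranged from -0.60 to 0.62 when 1 minipig was left out. Values that did not pass also turned sign. With C1 only, ssc-miR-451 turned to 0.49, ssc-miR-486 to 0.31, ssc-miR-144 to 0.041, ssc-miR-155-5p to 0.078 and ssc-miR-9828-3p to -0.057. With C7 only, ssc-miR-21 turned to -0.082 and ssc-miR-34a to -0.072. In thinned counts, ssc-miR-155-5p turned to 0.13, ssc-miR-34a to -1.14 and ssc-miR-150 to -0.31, and with at least 10 counts in every library ssc-miR-150 turned to -0.053. When 1 minipig was left out, log2 fold changes ranged from -0.72 to 0.39 for ssc-miR-451, -1.16 to 0.14 for ssc-miR-144, -0.48 to 0.44 for ssc-miR-21, -0.52 to 0.15 for ssc-miR-155-5p, -0.19 to 0.23 for ssc-miR-34a, -0.11 to 0.13 for ssc-miR-150 and -0.11 to 0.34 for ssc-miR-9828-3p. The cause was not tested.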
